A study of Oryza brachyantha and Oryza sativa Japonica Group and Oryza glaberrima with 38 samples.

Results

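H3K9me2 peaks of rice (Oryza sativa, japonica) were compared between plants at tillering and seedlings. The members were the intervals of 3 peak lists on chromosomes 1 to 12, 1 list from tillering plants of 60 days and 2 from seedlings of 2 weeks, out of 38 samples in the whole series. An interval was tillering-only when it shared no bp with either seedling list. It was seedling-only when peaks of both seedling replicates touched it and no bp of the tillering list did. Joining the 3 lists gave 25237 intervals, of which 3762 were tillering-only, 660 were seedling-only and 13200 were shared by all 3 lists. The remaining intervals lay in 1 seedling list or in the tillering list and 1 seedling list. Presence or absence of a peak therefore chose the classes, and their existence is not a result.

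Both groups were green-house plants without a named mutation or treatment. The tillering library came from 8 g of aerial tissue and each seedling library from 4 g of shoots, so stage, tissue amount and the parts of the plant collected cannot be told apart. Chromatin was fixed with 3% formaldehyde, broken to 300 to 500 bp and precipitated with 1 H3K9me2 antibody, ab1220. The tillering library was called against an input that the tillering H3K4me3 library shares. Seedling replicate 1 was called against its own input and seedling replicate 2 against an H3 precipitation, so a control of another kind accompanied replicate 2 throughout. The labels do not say whether the seedling libraries came from separate plants, and read depth is not known. With 1 library against 2 there are 3 assignments, and an exact permutation test could not go below a one-sided p of 0.333. No difference between the stages was therefore tested, and every value below describes these libraries.

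In plants, dimethylation of lysine 9 of histone H3 marks silent chromatin, above all over transposons and repeats. SUVH-type methyltransferases bind methylated DNA and write the mark, and chromomethylases bind the mark and methylate DNA, so that both are kept together. H3K4me3 and H3K56Ac, which served here as landmarks, are found at active genes. H3K27me, for which the label gives no number of methyl groups, is a form of methylated lysine 27. All positions are those of the tigr6 assembly, counted from 1.

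The tillering list was the widest in coverage and held the weakest peaks. It had 24310 intervals over 78.3 Mb, or 21.0% of the chromosomes, with a median width of 1474.5 bp. Seedling replicate 1 had 28275 intervals over 16.7% of the chromosomes with a median of 1053 bp, and seedling replicate 2 had 26782 over 18.8% with a median of 1331 bp. The lowest −log10 q in the authors' files was 0.504 in the tillering list, against 1.02 and 1.01 in seedling replicates 1 and 2. The median fold enrichment over the control was 1.30 at tillering, against 2.64 and 2.18 in the seedling replicates. A −log10 q of at least 2 was reached by 15.1% of tillering peaks, against 55.4% and 55.1% of the seedling peaks. A −log10 q of at least 1 was reached by 75.8% of tillering peaks and by all seedling peaks. Of the 3762 tillering-only intervals, 2483 reached it. The others were called at a level that the seedling lists do not contain. This bears on each count below, and its part in them was not tested.

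Most H3K9me2 bp lay in intervals that all 3 lists touched. Of the tillering bp, 94.3% lay in intervals shared by all 3 lists, against 96.6% of the bp of seedling replicate 1 and 95.7% of those of replicate 2. Not every bp of such an interval is in each list, and 12.6% of the tillering bp lay outside both seedling lists. Tillering-only intervals were 15.5% of the tillering intervals and 2.34% of their bp. Seedling-only intervals were 3.98% of the 16585 seedling intervals that held peaks of both replicates. A single seedling list gave 2353 intervals found in no other list for replicate 1 and 2083 for replicate 2, which were 8.32% and 7.78% of those lists. Because these shares follow from the rule, the number found in a single seedling list is the nearest like-for-like value for the tillering-only count. The tillering list thus held more intervals of its own than either seedling list did. It also held peaks below a −log10 q of 1, which the seedling lists lack, and 2483 of its 3762 own intervals reached 1.

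**Figure D1:**
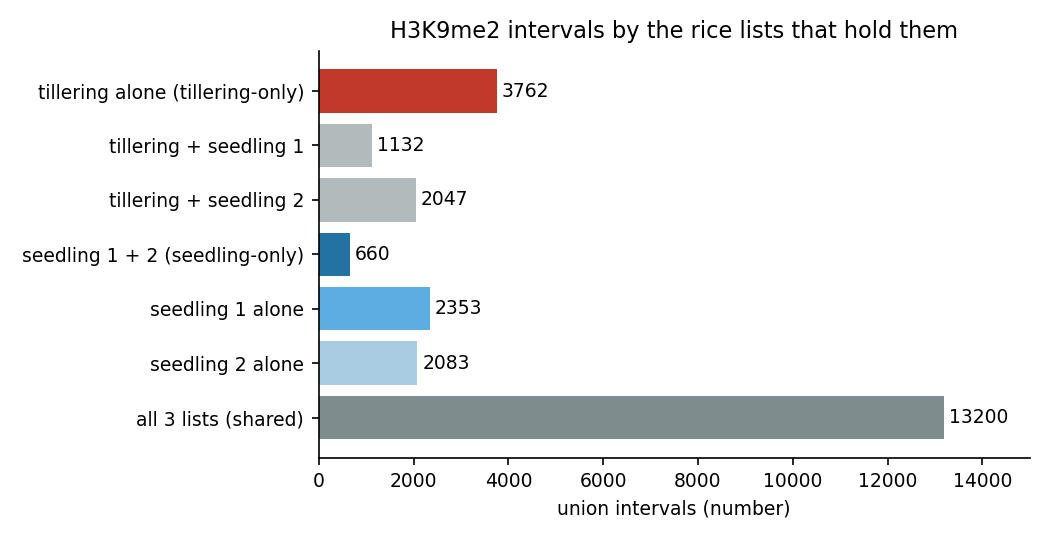
Number of union H3K9me2 intervals (horizontal axis) for each combination of the 3 rice lists (vertical axis). Shared intervals (13200) outnumber all other combinations, and the 660 found in both seedling lists alone are the fewest.

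The same count can be read from the side of absence. A total of 660 intervals were missing from the tillering list but present in both others, whereas 2047 were missing from seedling replicate 1 and 1132 from replicate 2. The tillering list missed fewer positions that the 2 others held than either seedling list did. Pairs of lists gave the same picture. Of the tillering intervals, 27.5% shared no bp with seedling replicate 1 and 21.4% none with replicate 2, whereas 12.8% of replicate 1 and 11.4% of replicate 2 intervals shared none with the tillering list. Between the seedling replicates the shares were 16.3% of replicate 1 and 21.2% of replicate 2, higher than those of the seedling lists against the tillering list. The excess of tillering-only over seedling-only intervals depended on the limit set on peak strength. When peaks below a −log10 q of 1 were left out of all 3 lists, there were 2483 tillering-only and 3064 seedling-only intervals, and with a limit of 2 there were 1655 and 7471, so the order turned round. The limit of 1 removed peaks from the tillering list alone, which kept 75.8% of its peaks. The limit of 2 kept 15.1% of tillering peaks, against 55.4% and 55.1% of seedling peaks. An interval whose tillering peaks fell below the limit could thus become seedling-only, so this direction follows in part from the limits. With a limit of 3, added after the data were seen, there were 865 and 796. Limits set within each list kept the excess, with 4560 tillering-only and 2981 seedling-only intervals when the weaker 50% of each list was left out. The strongest peaks covering 10% of the chromosomes in each list gave 5715 and 2017.

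At the edge of the rule, values on both sides were as follows. Among tillering intervals, 232 had no bp in a seedling list but a seedling peak within 100 bp, and 484 shared between 1 and 100 bp with one. Among seedling intervals of both replicates, 34 lay within 100 bp of a tillering peak without touching it and 83 shared between 1 and 100 bp. Most bp outside the lists of the other stage did not lie in stage-only intervals. Of the tillering bp, 9.85 Mb (12.6%) lay outside both seedling lists, and 18.6% of these lay in tillering-only intervals. Of the bp found in both seedling lists, 3.04 Mb (5.83%) lay outside the tillering list, and 12.1% of these lay in seedling-only intervals. The rest in both accounts lay in intervals that the other stage also touched. List by list, 28.8% of tillering bp lay outside seedling replicate 1 and 21.2% outside replicate 2. In the other direction, 10.4% of replicate 1 and 11.6% of replicate 2 bp lay outside the tillering list. Between the seedling replicates the shares were 16.4% of replicate 1 and 25.5% of replicate 2 bp.

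Stage-only intervals were short and shared ones long, which follows in part from the rule. A shared interval joins peaks of 3 lists, and a wide peak has more bp that can overlap another. The median width was 396 bp for tillering-only and 824 bp for seedling-only intervals, against 3818.5 bp for shared ones. In the single lists, the peaks inside shared intervals had medians of 2584 bp (tillering), 1335 bp (seedling replicate 1) and 1838 bp (replicate 2). Of the tillering-only intervals 61.8% were under 500 bp, and the widest had 3053 bp. Of the seedling-only intervals 18.8% were under 500 bp, and 20 of 660 reached 5 kb, which held 23.5% of the bp of their class. Intervals of 5 kb or more made up 38.3% of the shared class and held 74.2% of its bp. The widest shared interval lay on chromosome 10 at 3222593 to 3333171, 110.579 kb in all, with tillering peaks over 98.4% of it and seedling peaks over 91.6% (replicate 1) and 92.6% (replicate 2).

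The gap in width between tillering-only and seedling-only intervals depended on how the classes were drawn. A seedling-only interval is a union of peaks of 2 replicates and had to be called in both. In the single lists, the peaks inside seedling-only intervals had medians of 528 bp (replicate 1) and 557.5 bp (replicate 2), still above the 396 bp of tillering-only ones. With 1 seedling list in place of 2 the direction turned, and tillering-only intervals were wider by a median of 56 bp without replicate 1 and 126.5 bp without replicate 2. Intervals found in a single seedling list had medians of 300 bp (replicate 1) and 344 bp (replicate 2). In all 3 lists, the narrower a peak was, the more often it lay in that list alone. Under 500 bp this held for 45.6% of tillering peaks, 23.6% of those of seedling replicate 1 and 24.4% of those of replicate 2. At 5 kb or more it held for 0 peaks of each list, out of 4516 at tillering, 3089 in replicate 1 and 3964 in replicate 2.

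**Figure D2:**
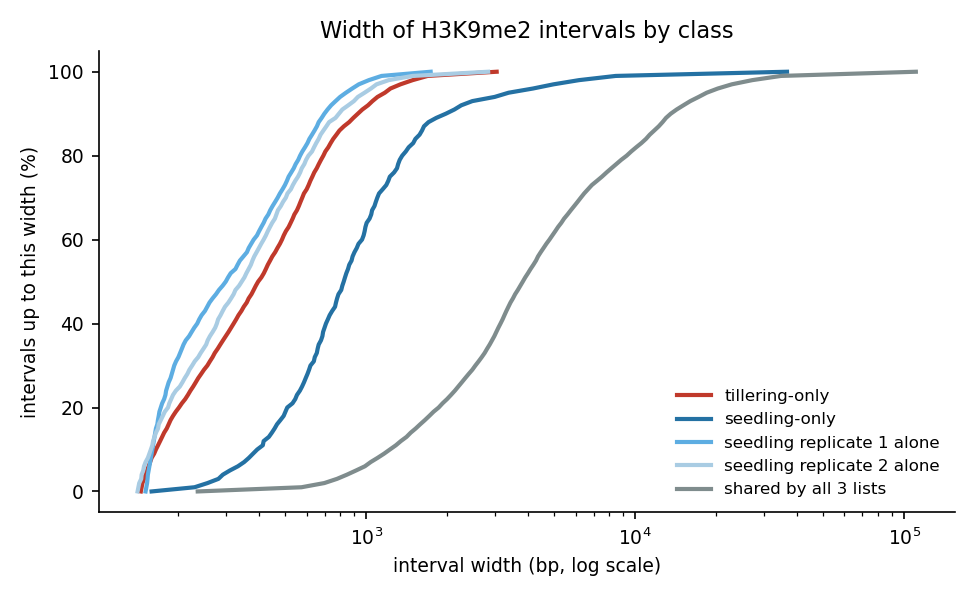
Cumulative share of H3K9me2 intervals (vertical axis, %) up to a given width (horizontal axis, bp, log scale) for each class. Tillering-only intervals (median 396 bp) run beside those found in 1 seedling replicate, seedling-only intervals (824 bp) lie to their right, and shared intervals (3818.5 bp) are the widest.

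In strength, the stage-only classes stood differently within their own lists. The median rank by −log10 q of tillering-only peaks was percentile 44.0 of the tillering list, against 51.6 for shared peaks. For seedling-only peaks it was percentile 29.9 in replicate 1 and 26.1 in replicate 2, against 54.6 and 55.96 for shared peaks. Tillering-only peaks thus ranked nearer to the shared peaks of their list than seedling-only peaks did in either seedling list. Of the 147 tillering peaks with a −log10 q over 5, 37 were tillering-only (25.2%), against 15.5% of the whole list. Of the 254 peaks of seedling replicate 2 over 5, 49 were found in that replicate alone (19.3%), against 7.78% of its list, and in replicate 1 it was 4 of 108 (3.70%), against 8.32%. The strongest tillering-only peak lay on chromosome 2 at 19640 to 19919. It had a −log10 q of 64.5, a fold of 2.82 and a pileup of 179, against a median pileup of 8.44 in the list. It was 280 bp wide, all of it inside H3K27me peaks of seedlings, and lay 4.83 kb from the nearest H3K4me3 peak. The next strongest, on chromosome 10 at 12137760 to 12137906 and on chromosome 8 at 2755854 to 2756165, had a −log10 q of 12.5 and 12.002. H3K27me peaks covered 0% of the first of these and 89.1% of the other. All 3 were under 500 bp wide.

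The widest tillering-only intervals lay on chromosome 3 at 13904499 to 13907551, on chromosome 7 at 8400911 to 8403678 and on chromosome 4 at 7267621 to 7270206. Their −log10 q values were 1.66, 1.54 and 1.08, with fold enrichments of 1.46, 1.44 and 1.22. The first and the second were above the medians of the tillering list (1.29 for −log10 q and 1.30 for fold) and the third was below both. H3K27me peaks of seedlings covered 34.3%, 39.2% and 100% of them, and no H3K4me3 or H3K56Ac peak touched them. The first lay 0.625 kb from a shared interval, and the third lay 32.8 kb from one.

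Along the chromosomes, the classes followed the same broad course. The H3K9me2-rich block fitted on each chromosome took up 24.3% of the total length, 90.4 Mb. It held 32.0% of tillering-only and 37.6% of seedling-only intervals, against 39.9% of shared ones. Intervals found in 1 seedling list gave 43.7% for replicate 1 and 29.9% for replicate 2, so the replicates lay farther apart than the stages. The outer 1 Mb of the chromosome ends, 6.45% of the length, held 4.36% of tillering-only and 2.42% of seedling-only intervals, against 4.65% of shared ones. Tillering-only intervals outnumbered seedling-only ones on 12 of 12 chromosomes. The rule favours this direction, because a seedling-only interval needs peaks of both replicates and a tillering-only one needs 1 list. In coverage, the tillering list was above both seedling lists, and replicate 2 above replicate 1, on 12 of 12 chromosomes. Tillering-only intervals had the highest density on chromosome 11, at 12.9 per Mb, and the lowest on chromosome 3, at 6.51 per Mb. Seedling-only intervals had the highest density on chromosome 4, at 3.17 per Mb, against 1.77 per Mb over all chromosomes.

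**Figure D3:**
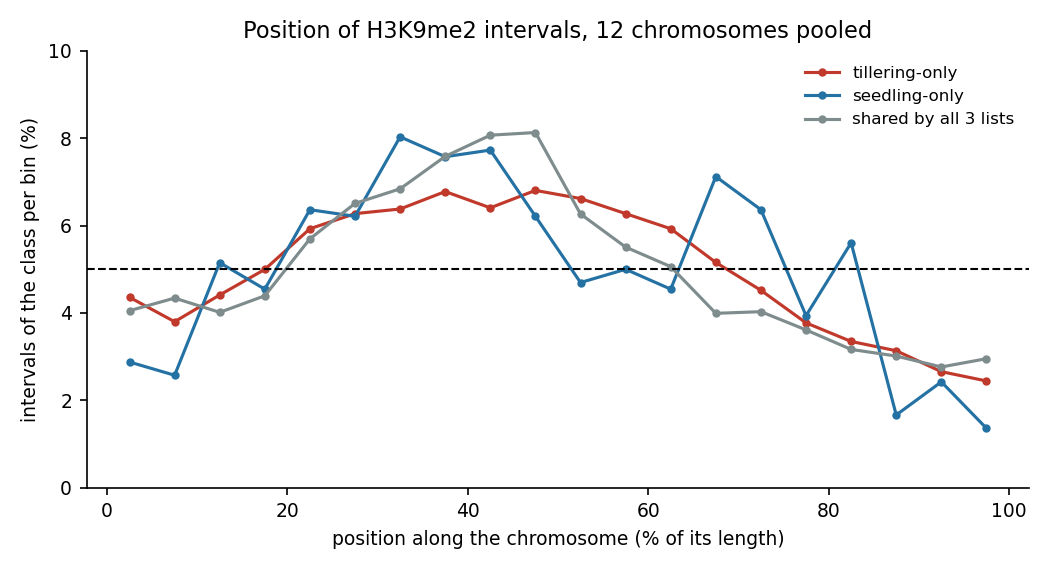
Share of each class of H3K9me2 intervals (vertical axis, %) in 20 bins of equal relative length (horizontal axis, % of the chromosome), pooled over 12 chromosomes. The dashed line is an even spread of 5% per bin. Tillering-only and shared intervals form a smooth hump around the middle, and the line for seedling-only intervals, with 660 members, is rougher.

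By number the stage-only classes were clustered to a like degree, whereas the 10 richest windows held a larger share of seedling-only than of tillering-only bp. The median distance from a tillering-only interval to the next of its class was 22.8 kb, at a mean spacing of 99.0 kb, and 31.7% had one within 10 kb. For seedling-only intervals the median was 122 kb at a mean spacing of 564 kb, and 17.7% had one within 10 kb. As a part of the mean spacing these medians were 0.231 and 0.217, and those of the intervals of a single seedling list were 0.235 and 0.274, so that both stage-only values were slightly below those of the single seedling lists. By bp they parted. Of 379 windows of 1 Mb, 7 held no tillering-only and 113 no seedling-only interval. The 10 windows richest in each class held 7.04% of tillering-only bp and 37.7% of seedling-only bp. With fewer members the seedling-only class leaves more windows empty by number alone, so the shares of bp are not on an equal footing. In addition, 20 of its 660 intervals held 23.5% of its bp.

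The window richest in tillering-only bp, chromosome 10 at 4000001 to 5000000, held 26 such intervals over 16.0 kb. It was followed by chromosome 1 at 15000001 to 16000000 with 15.1 kb and chromosome 11 at 10000001 to 11000000 with 14.97 kb. In these windows the tillering list covered 32.1%, 33.1% and 28.5%, against 21.1% to 27.1% in the seedling lists. The windows richest in seedling-only bp were chromosome 2 at 29000001 to 30000000 with 61.9 kb, chromosome 12 at 8000001 to 9000000 with 47.8 kb and chromosome 4 at 24000001 to 25000000 with 42.7 kb. The median over all windows was 1.06 kb for seedling-only and 4.39 kb for tillering-only intervals. In the window on chromosome 4 tillering peaks covered 0%, against 3.01% and 4.77% in seedling replicates 1 and 2.

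That window lay within the longest stretch without a tillering H3K9me2 peak. It ran on chromosome 4 from 23759214 to 25537935, 1.78 Mb, while the next longest were 0.532 and 0.421 Mb and the median distance between tillering peaks was 2.53 kb. The longest stretch without a peak was 0.639 Mb in seedling replicate 1 and 0.417 Mb in replicate 2. Inside the stretch on chromosome 4, seedling replicate 1 had 54 peaks over 63.2 kb and replicate 2 had 61 peaks over 99.3 kb, with 49.7 kb in common. The stretch held 33 seedling-only intervals, and 10 further intervals were found in replicate 1 alone and 25 in replicate 2 alone. Their median fold was 2.58 in replicate 1 and 2.12 in replicate 2, close to the 2.64 and 2.18 of the whole lists. In flanks of the same length tillering peaks covered 12.8% before and 13.7% after the stretch. Seedling replicate 1 covered 10.1% and 9.82% of the flanks and replicate 2 covered 12.1% and 12.7%, so the lists were close to each other up to both edges. The seedling lists were also sparser inside, at 3.56% and 5.58%.

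The authors' peak numbers were used to check that no lines had been lost after the peaks were numbered. Numbers ran from 1 to 24310 in the tillering list with 0 breaks, and the peaks at the edges of the stretch were numbers 8071 and 8072. These edge peaks had folds of 1.08 and 1.03, below the median of 1.30 in the list, and pileups of 12.4 and 10.01, above the median of 8.44. The tillering H3K4me3 library, called against the same input, had 218 peaks inside the stretch. They covered 6.92% of it, against 6.03% and 5.09% of the flanks, with a median fold of 3.93 and a median pileup of 31.5. Over the whole list these were 3.72 and 30. H3K4me3 calls were of usual strength in the stretch, while H3K9me2 calls were absent. The median fold over the whole list was 3.72 for H3K4me3, against 1.30 for tillering H3K9me2. H3K4me3 calls therefore cannot show whether peaks as weak as those of H3K9me2 could be called there. Whether the input differed in the stretch was not tested. H3K56Ac of seedlings covered 9.75% and H3K27me of seedlings 9.34% of it, with 145 H3K27me peaks.

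**Figure D4:**
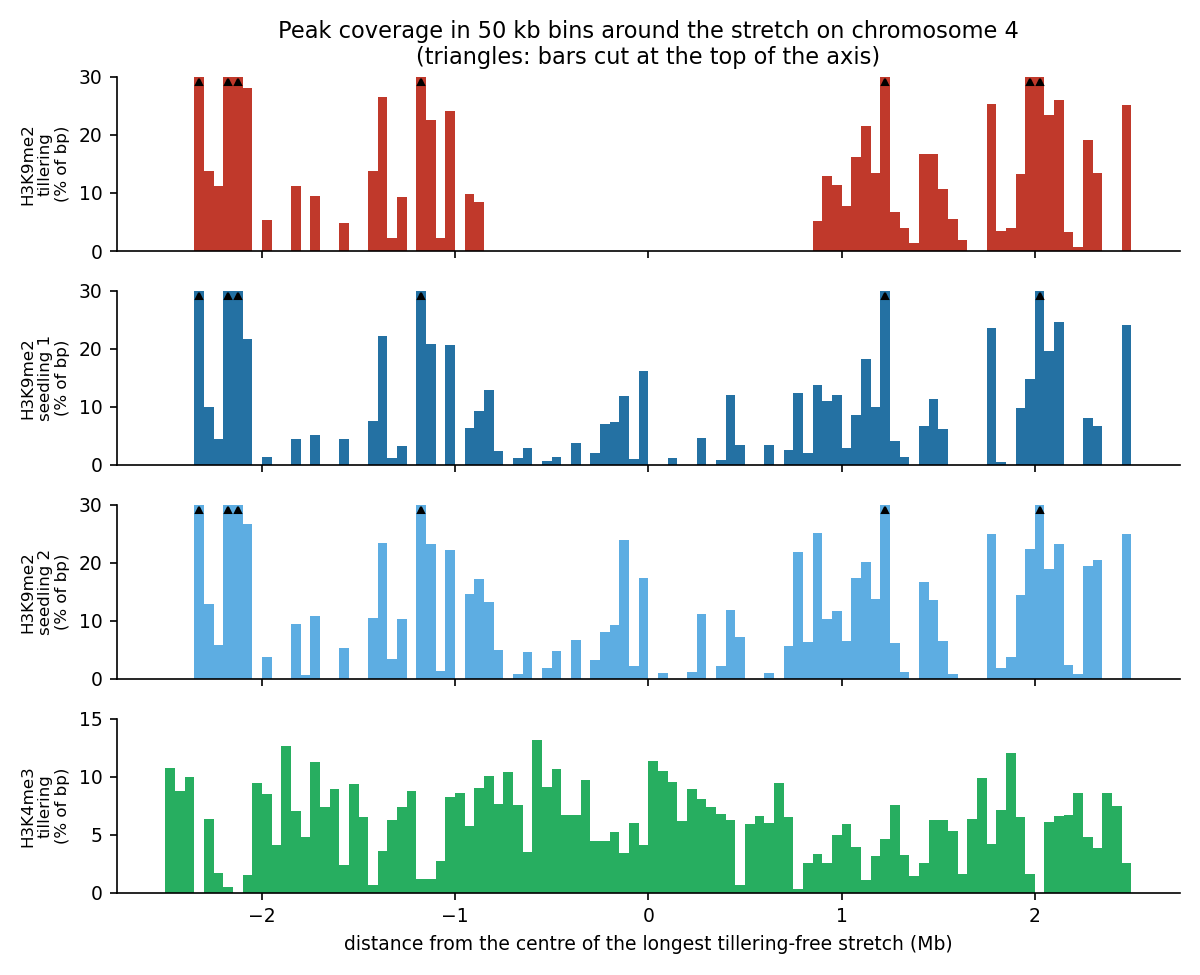
Share of bp in peaks (vertical axes, %) in 50 kb bins against the distance from the centre of the longest stretch without tillering H3K9me2 peaks on chromosome 4 (horizontal axis, Mb), for tillering H3K9me2, both seedling H3K9me2 replicates and tillering H3K4me3. Triangles mark bars that exceed the axis. Tillering H3K9me2 is at 0 over 1.78 Mb in the middle, where both seedling replicates have 54 and 61 peaks in all and H3K4me3 covers 6.92%.

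Ranking all stretches without a tillering peak by the lesser of the bp of the 2 seedling lists inside them put this stretch first. This ranking, and the choice of the first 5, were made after the data were seen, and the fifth and sixth were close, with 13.5 and 13.3 kb. The second lay on chromosome 2 at 29157778 to 29689402 and the fourth next to it at 28843694 to 29156959, separated by a tillering peak of 818 bp. The third lay on chromosome 8 at 13966071 to 14061041 and the fifth on chromosome 12 at 8509658 to 8530447. Seedling replicates 1 and 2 covered 7.24% and 9.30% of the second stretch, 34.5% and 36.6% of the third, 8.22% and 11.0% of the fourth and 65.2% and 67.5% of the fifth. H3K4me3 of tillering plants had median folds of 4.35 over 50 peaks in the second stretch and 3.98 over 33 in the fourth. The third held only 4 H3K4me3 peaks, with a median of 3.69, and the fifth only 2, with 3.67. The same ranking for stretches missing from seedling replicate 1 but held by the 2 other lists reached 8.44 kb at most, and for replicate 2 it reached 4.22 kb, against 63.2 kb on chromosome 4 for the tillering list.

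Together the 5 stretches made up 2.74 Mb, 0.736% of the chromosomes. They held 58 of 660 seedling-only intervals (8.79%), 25.5% of the bp of the class and 13 of its 20 intervals of 5 kb or more. The median width of seedling-only intervals was 2740.5 bp inside them and 784 bp elsewhere. The stretches were ranked by seedling bp within gaps of the tillering list, so high values of these kinds follow from the choice. Several named members lay here. The second widest seedling-only interval, on chromosome 8 at 14026760 to 14043802, was 17.0 kb long and covered to 98.9% by replicate 1 and 99.1% by replicate 2. Its highest −log10 q was 3.58 in replicate 1 and 3.47 in replicate 2. The third widest, on chromosome 2 at 29524816 to 29539277, was 14.5 kb long and covered to 84.9% and 100%. It lay 150 kb from the nearest shared interval. On chromosome 4, the interval at 24496785 to 24499946 had a −log10 q of 5.36 and 3.78 in replicates 1 and 2 and lay 737 kb from the nearest shared interval. H3K27me peaks covered 77.4%, 83.3% and 77.3% of these 3 intervals, and no H3K4me3 or H3K56Ac peak touched them.

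The widest seedling-only interval was of another kind. It lay at the start of chromosome 9, from 82 to 36771. The nucleolus organiser of rice, which carries the 45S ribosomal RNA genes, is at the end of the short arm of this chromosome, but the files hold no annotation for the interval. Seedling replicate 1 had 1 peak over all 36.7 kb, with a fold of 1.73, a −log10 q of 10.1 and a pileup of 196. Replicate 2 had 7 peaks of 162 to 329 bp there, 0.977 to 7.95 kb apart, with folds of 1.23 to 1.33. The replicates therefore shared 5.12% of the interval at most. The first tillering peak of the chromosome began at 48643. H3K27me peaks covered 100% of the interval. Both replicates had pileups well above the medians of their lists (10.6 and 18.2), with 192 to 326 in replicate 2.

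In 100 kb windows, tillering coverage was above that of both seedling lists in 2855 of 3729 (76.6%) and below both in 111 (2.98%). The tillering list also covered more of the chromosomes as a whole, 21.0% against 16.7% and 18.8%. The median difference between tillering and the seedling mean was 2.74 percentage points, with an SD over windows of 3.57. For seedling replicate 1 minus replicate 2 the median was −1.55 points, with an SD of 3.83. Tillering coverage exceeded both seedling lists by 10 points or more in 64 windows and was lower by as much in 6, which lay on chromosomes 2, 8 and 12 at or beside the stretches named above. The largest excess was on chromosome 4 at 9500001 to 9600000, with 69.3% at tillering, against 45.1% and 50.1% in seedling replicates 1 and 2. H3K27me of seedlings covered 70.4% of that window.

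The seedling replicates differed from each other by over 20 points in 12 windows, with replicate 2, the one called against H3, higher in 11. On chromosome 4 at 9100001 to 9200000 the coverage was 39.8% at tillering, 35.7% in replicate 1 and 99.4% in replicate 2, with H3K27me at 0% and 15 H3K4me3 peaks. The 3 neighbouring windows on chromosome 12, from 20400001 to 20700000, had 23.0% to 36.1% at tillering, 32.1% to 33.8% in replicate 1 and 80.1% to 89.2% in replicate 2. These held 24, 38 and 27 H3K4me3 peaks of tillering plants but 0 H3K56Ac peaks of seedlings. In 7 of the 12 windows there was at most 1 H3K56Ac peak. The H3K56Ac list was made from uniquely mapped reads and the seedling H3K9me2 lists were not, and the part of this in these windows was not tested. On chromosome 4 and in each of the 3 windows on chromosome 12, the replicates lay farther from each other than tillering lay from replicate 1.

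Stage-only intervals lay mostly inside or beside H3K27me peaks of seedlings, but less so than shared ones. H3K27me peaks covered 61.0% of tillering-only bp and 69.5% of seedling-only bp, against 78.7% of shared bp and 24.4% of the chromosomes. For intervals found in a single seedling list the value was 49.7% in replicate 1 and 54.5% in replicate 2. Some overlap with H3K27me was found for 2763 of 3762 tillering-only intervals (73.4%, 95% Wilson interval 72.0 to 74.8). It was found for 556 of 660 seedling-only intervals (84.2%, 81.3 to 86.8) and for 96.2% of shared ones. These intervals cover counting error only, and neighbouring intervals are not independent. Tillering-only positions, for which the seedling H3K9me2 lists had no peak, were more often touched by seedling H3K27me than the 58.0% and 66.6% of intervals found in seedling replicate 1 or 2 alone. At 500 to 1000 bp the shares were 77.9% for tillering-only intervals, against 62.0% and 73.2%. These classes were not matched in strength. Peaks found in seedling replicate 1 or 2 alone had median ranks at percentiles 20.2 and 17.6 of their lists, against 44.0 for tillering-only peaks. H3K27me came from 1 seedling library, so stage and class cannot be told apart in its overlaps.

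The difference from seedling-only intervals was smaller or of the other sign under several alternatives. Among intervals of 500 to 1000 bp, H3K27me covered 61.9% of tillering-only bp and 61.3% of seedling-only bp, against 68.5% of shared bp, while 77.9% of tillering-only and 81.4% of seedling-only intervals were touched. Without the 5 stretches named above and the start of chromosome 9, the difference over all widths was −3.55 percentage points, against −8.46 with them. With 1 seedling list in place of 2 the direction turned, to 4.35 percentage points higher for tillering-only bp without replicate 1 and 1.52 without replicate 2. The direction between the stage-only classes thus depended on the widths and the rule used. The value below that of shared intervals stood with either seedling list, at −12.6 points for tillering-only bp without replicate 1 and −19.7 without replicate 2. Within the blocks H3K27me covered 66.1% of tillering-only, 73.7% of seedling-only and 81.0% of shared bp, and in the arms 58.6%, 66.4% and 76.5%, so the order was the same in both.

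Marks of active genes covered a smaller share of every class described here than of the chromosomes. H3K4me3 peaks of tillering plants touched 22 of 3762 tillering-only intervals (0.585%, 95% Wilson interval 0.387 to 0.884) and 4 of 660 seedling-only intervals (0.606%, 0.236 to 1.55), against 1.80% of shared intervals. H3K56Ac peaks of seedlings touched 0.478% of tillering-only and 0.606% of seedling-only intervals, against 1.02% of shared ones. The H3K56Ac list was made from uniquely mapped reads, whereas the seedling H3K9me2 and H3K27me lists also hold reads with several matches. The part of this in the low H3K56Ac values was not tested. Wide intervals have more bp to be touched. By bp, H3K4me3 peaks covered 0.190% of tillering-only, 0.154% of seedling-only and 0.140% of shared bp, against 4.15% of the chromosomes. The intervals found in seedling replicate 1 alone had the highest values, as H3K4me3 touched 4.33% and H3K56Ac 4.63% of them, against 0.528% and 0.240% of those found in replicate 2 alone. By bp these were 2.23% for H3K4me3 and 2.46% for H3K56Ac in replicate 1 alone, below the 4.15% and 5.60% of the chromosomes.

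Stage-only intervals were also seldom near such marks. An H3K4me3 peak lay within 1 kb of 6.80% of tillering-only and 8.48% of seedling-only intervals, against 15.3% of shared ones. Among intervals of 500 to 1000 bp the values were 6.40%, 9.15% and 15.1%, so the lower value of the stage-only classes held at matched width. H3K56Ac, from uniquely mapped reads alone, lay within 1 kb of 9.89% of tillering-only and 9.09% of seedling-only intervals, against 18.6% of shared ones. The tillering-only value was also close to that of intervals found in seedling replicate 2 alone, 6.24% for H3K4me3 and 8.31% for H3K56Ac. For intervals found in replicate 1 alone the values were 11.8% and 14.3%, nearer to but also below those of shared intervals. With only peaks of −log10 q 3 or more, a limit chosen after the data were seen, these differences turned round. Under this limit an interval could also become stage-only because the peaks of the other stage fell below 3. The classes are therefore other sets than those above, and the median width difference between the stage-only classes was −5340 bp, against −428 bp. With the limit of 3, the share within 1 kb of H3K4me3 was 7.51 percentage points higher for tillering-only and 17.7 points higher for seedling-only than for shared intervals. For H3K56Ac it was 10.1 points higher for tillering-only intervals. Genes were not named, because no annotation of the assembly was used here.

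**Figure D5:**
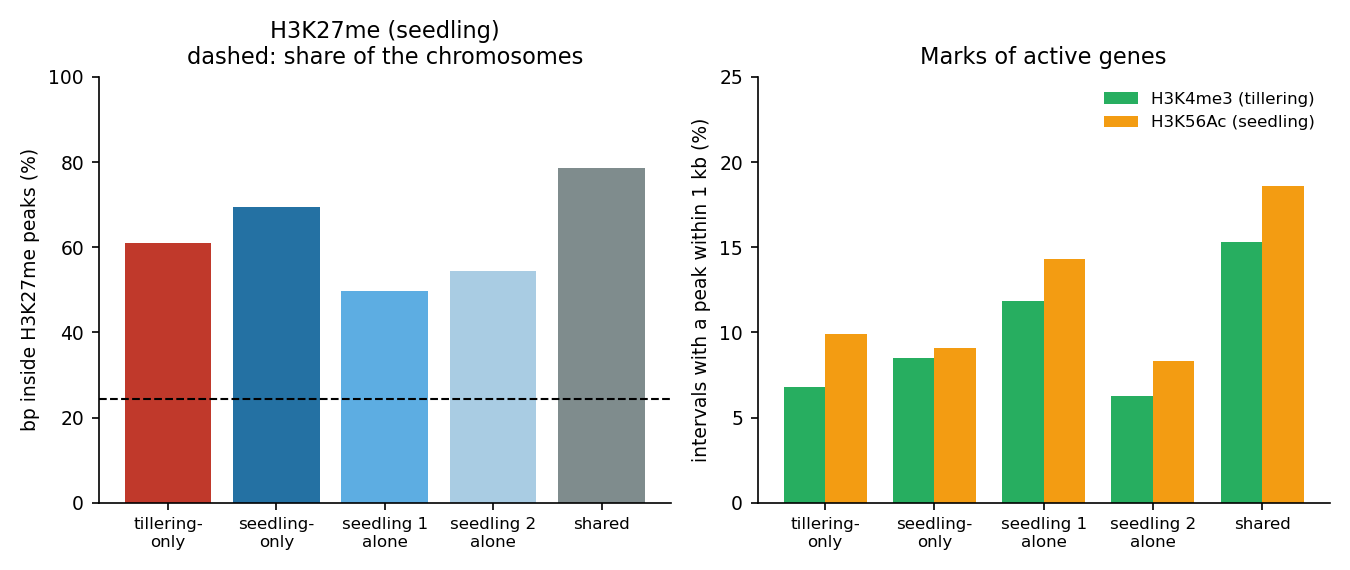
Left, share of the bp of each class inside seedling H3K27me peaks (vertical axis, %), with the share of the chromosomes (24.4%) as a dashed line. Right, share of intervals of each class with a tillering H3K4me3 or seedling H3K56Ac peak within 1 kb (vertical axis, %). Tillering-only (61.0%) and seedling-only (69.5%) bp lie below shared bp (78.7%) for H3K27me, and both classes are below shared intervals for the marks of active genes.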

How the data were processed

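Reads of 90 bp were aligned with Bowtie and peaks called per library with MACS2, per the submitters' processing notes, which also list bedtools and give no versions. Peak names in the deposited seedling H3K9me2 and H3K27me lists hold a Bowtie setting that puts a read with several matches at 1 random site, and that of H3K56Ac holds the setting for uniquely mapped reads. How the tillering lists treat such reads, and the peak threshold of any list, are not given in the sources used here. The deposited lists give the authors' pileup signal and, joined, −log10 p, fold enrichment and −log10 q. H3K27me has these without the pileup. Here they served to describe peaks and to set limits.

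Lists were merged with Python 3.11.15, numpy 2.4.6 and pandas 2.3.3, and plotted with matplotlib 3.10.9. Functions on intervals matched brute force in 50 simulated draws with 0 mismatches. One block per chromosome was fitted to 100 kb windows with tillering and seedlings weighted equally. Named intervals are the 3 widest of the shared and stage-only classes, the 3 of highest −log10 q of each stage-only class (lower of the 2 replicates for seedlings) and the 3 windows of 1 Mb with the most bp. Other places were named after their values were seen. Starts may be off by 1 bp. The members and lists were chosen with earlier results of these data known. Peak limits, overlap rules, merging and left-out replicates were tried as alternatives.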

Additional observations from a re-analysis of the deposited data

How the results depend on the processing

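No paired analysis was possible because the tillering group has 1 library, whose number does not pair it with a seedling replicate. The values below give, in this order where each applies, the number of tillering-only intervals, the number of seedling-only intervals, and the tillering-only minus seedling-only differences in median width, in the share of intervals in the block and in the share of bp inside H3K27me peaks. At the deposited thresholds these were 3762, 660, −428 bp, −5.63 points and −8.46 points. None of these could be tested, and the cause of the changes was not tested except where fewer samples or another definition made them.

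Under a limit on −log10 q, an interval could also become stage-only because the peaks of the other stage fell below the limit. When peaks below a −log10 q of 1 were left out of all 3 lists, there were 2483 and 3064 intervals, with differences of −1038 bp in width and −13.4 points in H3K27me. This limit removed peaks from the tillering list alone. With at least 2 there were 1655 and 7471 intervals, and the differences were −4012 bp, −15.6 and −14.1 points. With at least 3, added after the data were seen, there were 865 and 796 intervals, with −5340 bp, −27.6 and −15.1 points. The shares within 1 kb of H3K4me3 then turned round, to 7.51 points above shared intervals for tillering-only and 17.7 for seedling-only, and to 10.1 for tillering-only with H3K56Ac. The 50% of peaks with the highest −log10 q gave 2981 seedling-only intervals, −3672 bp, −17.0 and −13.8 points. The strongest peaks covering 10% of the chromosomes in each list gave 5715 and 2017 intervals, −4758 bp, −21.9 and −12.5 points. With that 50% in the list of presence only there were 1740 and 77 intervals, −1191 bp, −15.3 and −20.03 points.

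Counting an interval as stage-only with under 50% of its bp in the other stage gave 6383 and 2098 intervals and −593 bp, and H3K27me turned to 6.84 points. Requiring no peak of the other stage within 1 kb gave 2148 and 360 intervals and −11.8 points for H3K27me. Joining peaks up to 1 kb apart gave 400 seedling-only intervals and −573 bp. Leaving out either seedling replicate gave 5208 to 6688 tillering-only and 3050 to 3609 seedling-only intervals. The width difference turned to between 56 and 126.5 bp and the H3K27me difference to between 1.52 and 4.35 points, while the block difference ran from −10.7 to 0.941 points. Here a seedling-only interval needs 1 list in place of 2.

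Alternatives added after the data were seen were these. Without the 5 stretches free of tillering peaks the H3K27me difference was −5.66 points, and −3.55 without the start of chromosome 9 as well. With widths taken in single seedling lists the width difference was −147 bp. Among intervals of 500 to 1000 bp the H3K27me difference was 0.619 points. The number of tillering-only intervals exceeded that of seedling-only ones except under the limits of 1 and 2 on −log10 q. These limits removed a larger share of tillering than of seedling peaks. Read depth is not known, so whether a missing peak reflects fewer reads was not tested.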
